A study of Saccharomyces cerevisiae with 4 samples.

Results

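The transcripts of 10 subunits of the yeast RNA polymerases I and III were followed in Saccharomyces cerevisiae strain S288c, among the 6301 open reading frames (ORFs) of the series. The members were chosen by systematic name, with earlier results of these data known. Their counts and medians beside all ORFs are therefore descriptions. RPA135 (YPR010C), RPA49 (YNL248C), RPA34 (YJL148W), RPA14 (YDR156W) and RPA12 (YJR063W) belong to RNA polymerase I, RPC82 (YPR190C), RPC34 (YNR003C) and RPC53 (YDL150W) to RNA polymerase III, and RPC40 (YPR110C) and RPC19 (YNL113W) to both. Beside them stand 41 other genes of the pathway, among which are the other 9 subunits of both enzymes.

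The nitrogen-rich condition was growth in synthetic complete (SC) medium, shaken with 160 rpm at 30°C, with harvest in mid log phase, when the OD600 was 0.4. Nitrogen-poor cells had been moved from that culture to minimal medium (MM) with 0.025% ammonium sulfate, lacking adenine and amino acids, for 12 h. Medium and time of harvest therefore cannot be told apart. Both cDNAs of each of the 4 spotted arrays were primed on the poly-A tail with oligo-dT. The 2 arrays with MM in Cy5 and the 2 with SC in Cy5 each carry the replicate numbers 1 and 2.

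All values are log2 ratios of MM over SC, so a value below 0 means less transcript in MM relative to the mean of the array. The titles of the arrays disagree with their channel annotations on which dye each medium received, and the direction was taken from the signs that the study states for 5 genes. All 5 had that sign, although 4 of them lie in the stretches of poor replication described below. If the direction were opposite, every sign in the text would turn. Each array was normalized to its own mean, so a change of total mRNA per cell cannot be told apart from no change. Blank spots, which were not well measured, made up 5.71% and 7.25% of the ORFs on the arrays of replicate 1 and 30.3% and 34.6% on those of replicate 2. The replicates correlated across genes with r = 0.959, except in 4 runs of neighbouring ORFs (771 fitted genes), where r was 0.042. None of the 10 members lies in a run.

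RNA polymerase I transcribes the precursor of the large ribosomal RNAs, and RNA polymerase III makes the small 5S ribosomal RNA, the transfer RNAs and other short transcripts. Each enzyme has a core formed by its largest subunits, an assembly platform of RPC40 and RPC19 that both enzymes share, a few small subunits common to all nuclear RNA polymerases, and peripheral modules that work in initiation, elongation and termination. In growing yeast these enzymes carry most of the transcription of the cell, and their activity is known to follow nutrient supply through the TOR pathway. The subunit mRNAs themselves are made by RNA polymerase II and have poly-A tails, whereas ribosomal and transfer RNAs were not a target of the oligo-dT primer.

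Most of the 10 subunit transcripts lay below 0 in MM. Every value was below 0 in 8 members, against 31.0% of the 5895 ORFs with at least 2 values. In 1 member every value was above 0, against 2051 of these ORFs. The 5895 ORFs include those in the runs, where no member lies. The lowest mean was that of RPA49, with 3.02-fold less transcript in MM over the 2 replicates. RPC40 and RPA34 followed with 1.99-fold and 1.80-fold less transcript in MM. RPC34 had the opposite sign, at 1.44-fold more in MM in the single replicate that measured it.

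**Figure D1:**
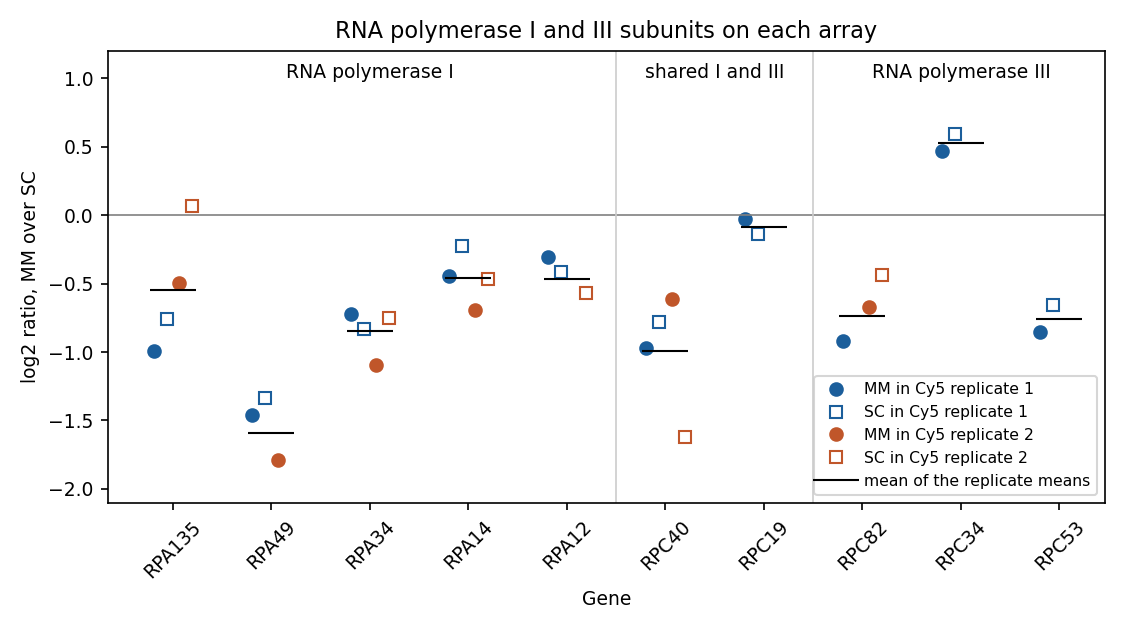
The log2 ratio of MM over SC (vertical axis) for each of the 10 subunit genes, grouped by enzyme. Symbols are single arrays, with colour for the replicate number and fill for the dye orientation, and the horizontal bar is the mean of the replicate means; 8 genes have all their points below 0, RPA135 has 1 point above it and RPC34 has both points above it.

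The number of arrays behind each member differed. RPA135, RPA34, RPA14 and RPC40 were measured on all 4 arrays, RPA49, RPA12 and RPC82 on 3, and RPC19, RPC34 and RPC53 on the 2 arrays of replicate 1 only. The test of the medium averaged both dye orientations of each replicate number to 1 replicate (n = 2) and set their mean against 0 with limma, with a Benjamini-Hochberg adjusted p at or under 0.05 as the threshold. It took genes with values on all 4 arrays, that is 3765 genes and 4 of the members. In this fit 2 of the 4 members were called lower in MM, RPC40 and RPA34, and none was called higher, where 17.0% of all fitted genes were called lower and 16.5% higher. Without adjustment of p the same threshold gave 3 of 4, against 24.8% of all genes. Neither call held without the moderation of the variance in limma, where the adjusted p was 0.235 for RPC40 and 0.216 for RPA34. In that fit 0 of all 3765 genes were called, so it cannot set these 2 genes apart from others.

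Members with a blank spot enter only wider fits. With arrays as independent samples and at least 3 values, 6 of 7 members were called lower and none higher, against 21.8% and 21.7% of 4570 genes. This fit counts both arrays of a replicate as separate samples, and the adjusted p values given below on single arrays come from it unless stated otherwise. With replicate means over the arrays present in both replicates, 4 of 7 members were called lower and none higher, against 13.0% and 13.4% of 4606 genes. This fit was chosen after seeing the data, and it weighs a replicate mean of 1 array like that of both arrays. The adjusted p values given below on replicate means come from it. The 3 members measured only in replicate 1 have no test.

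RPA135 is the second-largest subunit of RNA polymerase I and forms the catalytic core with RPA190. Its log2 ratio was -0.99 and -0.76 on the replicate 1 arrays (MM in Cy5, then SC in Cy5, as throughout) and -0.50 and 0.07 on those of replicate 2. The first replicate lay well below the second, and 1 array of 4 was above 0. The mean of the replicate means was -0.55 ± 0.47 (SD, n = 2), which did not pass the test (adjusted p = 0.141 in limma). With single arrays as samples the adjusted p in limma lay on either side of the threshold, at 0.047 among the genes on all 4 arrays (called) and at 0.05003 among the genes on at least 3 (not called).

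RPA49 and RPA34 form a heterodimer on the surface of RNA polymerase I that is related to the initiation factor TFIIF of RNA polymerase II. RPA49 gave -1.46 and -1.34 in replicate 1 and -1.79 on the MM in Cy5 array of replicate 2, its spot on the last array being blank. All 3 values were among the lowest of their arrays, where between 3.12% and 3.74% of ORFs were lower. The mean of -1.59 ± 0.28 (SD, n = 2) was the lowest of all members, with an adjusted p in limma of 0.019 on replicate means and 0.000833 on single arrays.

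RPA34 was measured everywhere, at -0.72 and -0.83 in replicate 1 and at -1.09 and -0.76 in replicate 2. The 4 values were of similar size, and both replicates lay on the same side of 0. The mean was -0.85 ± 0.11 (SD, n = 2; SE in the fit 0.099), called lower with an adjusted p of 0.020 in limma. Without the MM in Cy5 array of replicate 2 the mean was -0.77 and the adjusted p 0.052, over the threshold. RPA49 was lower than its partner on each of the 3 arrays that measured both. The difference of their log2 ratios, RPA49 minus RPA34, was -0.74, -0.70 and -0.51. Over the replicate means of this difference an exact two-sided sign-flip test gave p = 0.5, the smallest that 2 replicates allow.

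RPA14 joins RPA43 in the stalk of RNA polymerase I, which binds the initiation factor RRN3. Its values were -0.45 and -0.23 in replicate 1 and -0.69 and -0.47 in replicate 2. All 4 were below 0 but smaller in size than those of RPA34. The mean was -0.46 ± 0.17 (SD, n = 2). Its adjusted p in limma was 0.066 among the genes on all 4 arrays, 0.081 in the wider fit on replicate means and 0.018 on single arrays.

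RPA12, which helps the enzyme cleave back-tracked RNA, gave -0.31 and -0.42 in replicate 1 and -0.57 on the SC in Cy5 array of replicate 2. These 3 values lie within the range of those of RPA14. The mean was -0.47 ± 0.14 (SD, n = 2), with an adjusted p in limma of 0.072 on replicate means and 0.038 on single arrays.

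RPC40 and RPC19 correspond to RPB3 and RPB11 of RNA polymerase II and nucleate the assembly of both enzymes. RPC40 gave -0.97 and -0.78 in replicate 1 and -0.62 and -1.62 in replicate 2. All 4 values were well below 0, but the last array stood apart from the others. The mean was -0.996 ± 0.17 (SD, n = 2; SE in the fit 0.11) and was called lower, with an adjusted p of 0.019 in limma. Between the dye orientations of replicate 2 the difference of 1.00 was larger than that of 96.4% of 3875 ORFs (median 0.316), while in replicate 1 it was 0.193, close to the median of 0.189. The call in limma held without each array in turn, with means between -1.25 and -0.75.

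RPC19 was near 0, at -0.032 and -0.14 in replicate 1, and had no value in replicate 2. RPC40 lay below it on both arrays that measured the pair, with differences of -0.94 and -0.64 between the log2 ratios. With 1 replicate this difference has no test.

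RPC82, RPC34 and RPC31 form a trimer that is needed for initiation by RNA polymerase III, in which RPC34 contacts the factor TFIIIB. RPC82 gave -0.92 on the MM in Cy5 array of replicate 1 and -0.67 and -0.44 in replicate 2. The 3 values were all below 0, with the single value of replicate 1 the lowest. The mean was -0.74 ± 0.26 (SD, n = 2), and the replicate 1 mean rests on 1 dye orientation. RPC82 was not in the fit of genes on all arrays. The wider fits called it lower, with an adjusted p in limma of 0.049 on replicate means and 0.014 on single arrays. The value of 0.049 lies close to the threshold and comes from the fit chosen after seeing the data.

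RPC34 was the exception among the members. It gave 0.47 and 0.59 on the arrays of replicate 1, higher than 76.7% and 83.9% of all ORFs there, and was blank in replicate 2. On the 1 array that measured both, the log2 ratio of RPC82 minus that of RPC34 was -1.39.

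RPC31, the remaining subunit of the trimer, was not a member but lies outside the runs. It gave -0.81 and -0.29 in replicate 1 and -0.39 and -0.026 in replicate 2. All 4 values were below 0, each higher with SC in Cy5 than with MM in Cy5. The mean of -0.38 ± 0.24 (SD, n = 2) did not pass the test (adjusted p = 0.120 in limma).

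RPC53 pairs with RPC37 in a module of RNA polymerase III that serves termination and reinitiation and is related in structure to the RPA49 and RPA34 pair. RPC53 gave -0.85 and -0.66 in replicate 1 and was blank in replicate 2. Both values lay among the lowest 10.9% of their arrays. The mean of -0.76 has no replicate and no test.

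**Figure D2:**
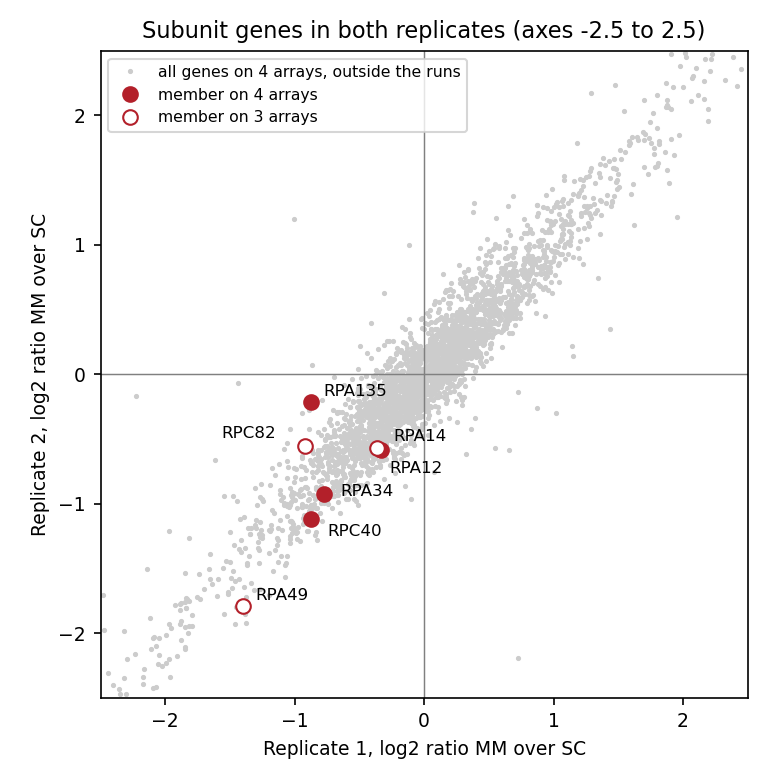
Mean log2 ratio of replicate 1 (horizontal axis) against replicate 2 (vertical axis) for the 7 subunit genes with values in both replicates (filled, 4 arrays; open, 3 arrays) and, in grey, the genes on 4 arrays outside the runs. All 7 lie below 0 in both replicates, with RPA49 farthest from 0 and RPA135 and RPC82 lower in replicate 1 than in replicate 2.

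Ordered by mean log2 ratio, the members ran from RPA49 through RPC40, RPA34, RPC53, RPC82, RPA135, RPA12, RPA14 and RPC19 to RPC34. The step of 0.60 from RPA49 to RPC40 was larger than the sum of their replicate SDs (0.45), but their arrays overlapped because of the single low value of RPC40. Wherever both genes of a later step had 2 replicates, the step was smaller than the sum of their SDs. The values of RPC19 did not overlap those of RPA14 below or of RPC34 above, in the arrays that measured them.

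As a group the 4 fitted members had a median log2 ratio of -0.70, against -0.02 for all 3765 genes, and their medians in the replicates were -0.82 and -0.75. The members were chosen with earlier results known, so such contrasts describe them and test nothing. Over all 10 members the median of the means was -0.64, against 0.01 for ORFs with at least 2 values. The members below 0 numbered 9 of 10 on the MM in Cy5 array of replicate 1, 8 of 9 with SC in Cy5, and 6 of 6 and 5 of 6 in replicate 2. Of all ORFs measured there, 48.9% and 45.4% were below 0 in replicate 1 and 54.0% and 48.9% in replicate 2. Below the lower quartile of all ORFs on these arrays lay 7, 6, 5 and 5 of the members. The members' median was below that of all ORFs on each array, and RPC34 and RPC19, the members with the highest means, were blank on both arrays of replicate 2.

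No dye difference was called among the 4 members on all arrays. Their dye terms had adjusted p values between 0.727 and 0.885 in limma, against 0.0266% of 3765 genes (1 gene). The smallest unadjusted p of the dye term among them was 0.296 in limma.

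The other 9 subunits of RNA polymerase I and III are given apart, as 6 of them lie in the runs where the replicates do not correlate. Of the 7 on all 4 arrays none was called in limma, against 17.0% lower and 16.5% higher among all fitted genes. The median log2 ratio of the 7 was -0.04. Only 2 of them lie outside the runs, with a median of -0.08. In limma 1 of the 7 was higher at an unadjusted p at or under 0.05, as were 882 of all 3765 genes. The replicate means of genes inside the runs are given for this reason, and the part of the poor replication in them was not tested.

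RPA190, the largest subunit of RNA polymerase I, was close to 0 on every array, from -0.20 to -0.01. Its replicate means were -0.093 and -0.11, and their mean of -0.10 ± 0.01 (SD, n = 2) lay above that of its core partner RPA135 (adjusted p against 0 in limma 0.438). RPA43 had replicate means of -0.69 and -0.04, with both arrays of each replicate close together. Both genes are in the fourth run.

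The core of RNA polymerase III is formed by RPO31 and RET1, which also lie in the fourth run. RPO31 gave -0.48 in replicate 1 and 1.56 in replicate 2, opposite in sign. RET1 was above 0 on each array, from 0.16 to 0.62, with replicate means of 0.49 and 0.28, a mean of 0.39 and an adjusted p in limma of 0.082, or 0.032 with single arrays as samples.

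RPC25, a stalk subunit of RNA polymerase III in the first run, gave 0.83 and 0.52 in replicate 1 and 0.47 in replicate 2, with an adjusted p of 0.017 in limma on single arrays and 0.052 on replicate means. RPC17, its partner outside the runs, stayed within 0.15 of 0 on 3 arrays, at 0.14, -0.0068 and -0.05. RPC37 of the first run had replicate means of 0.39 and -0.47, so that its mean of -0.04 describes neither. RPC11, the counterpart of RPA12 in RNA polymerase III, was above 0 on all 4 arrays (0.50 and 0.30 in replicate 1, 0.017 and 0.10 in replicate 2), with a mean of 0.23 ± 0.24 (SD, n = 2; adjusted p = 0.268 in limma).

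Related subunits of the 2 enzymes could be set side by side where both lie outside the runs. RPA12 was lower than RPC11 on each of 3 arrays, with differences of -0.80, -0.72 and -0.66 between the log2 ratios. RPA14 was lower than RPC17, its counterpart in the stalk, on each of 3 arrays, with differences of -0.59, -0.22 and -0.42. For each of these pairs the exact two-sided sign-flip test over the replicate means again gave p = 0.5, the smallest possible. RPC53, of the module related to RPA49 and RPA34, was measured in replicate 1 only, at -0.85 and -0.66. There RPA34 gave -0.72 and -0.83, on either side of RPC53, and RPA49 gave -1.46 and -1.34. These differences were not tested.

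**Figure D3:**
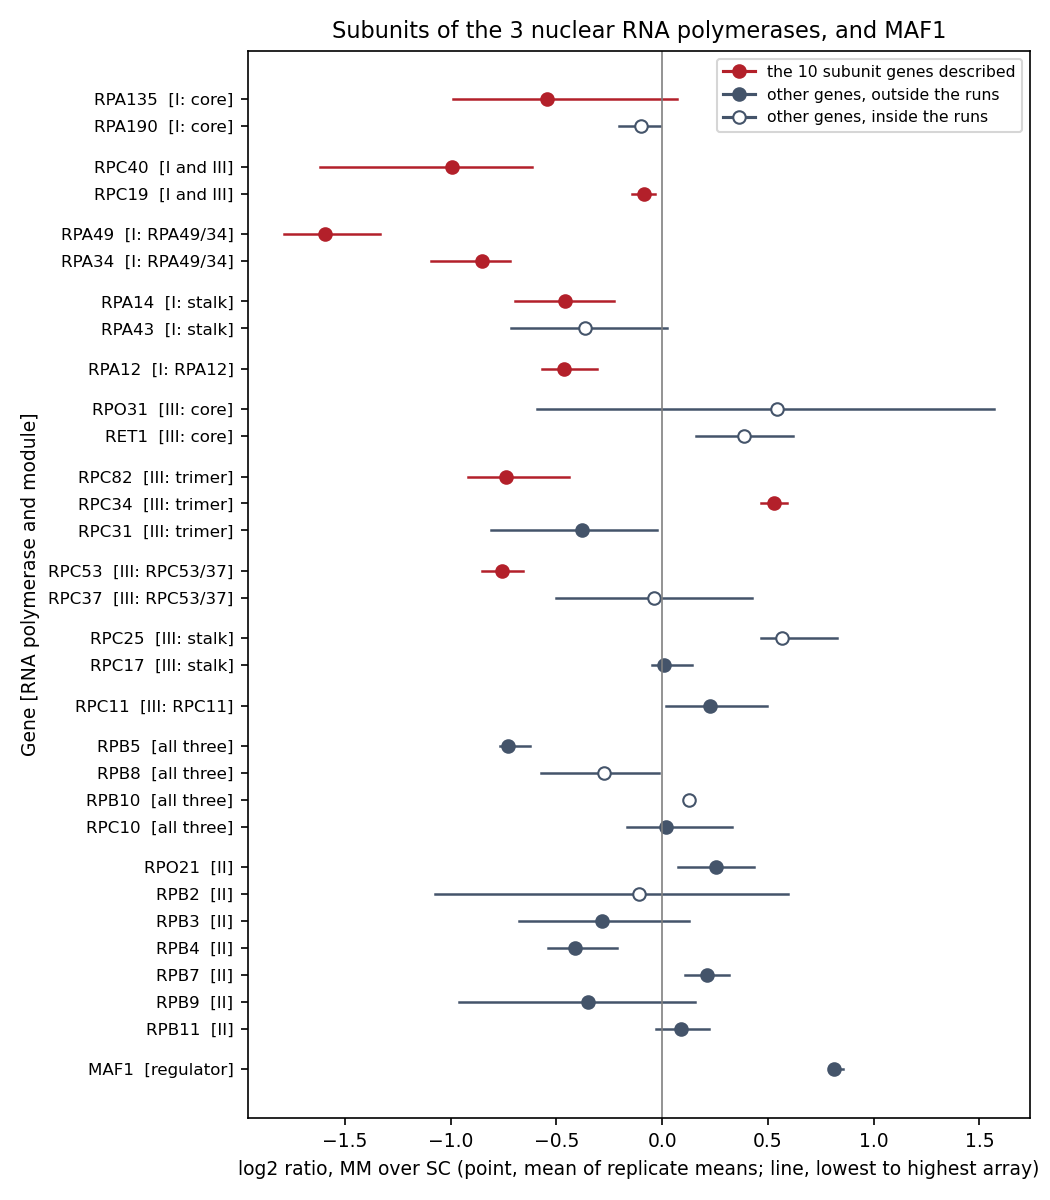
Mean of the replicate log2 ratios (point) and range over the arrays (line) on the horizontal axis, for the subunits of the nuclear RNA polymerases by module and for MAF1. The 10 subunit genes described are red, and open points are genes inside the runs of poor replication, where RPO31 spans from -0.59 to 1.57.

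Subunits of RNA polymerase II, which transcribes mRNA, serve as a comparison from the same machinery. Of its 7 own subunits 6 were fitted and none was called, with a median log2 ratio of -0.20. Of all fitted genes 17.0% were called lower and 16.5% higher. RPB2, 1 of the 6, lies in the fourth run, and the 5 fitted outside the runs had a median of -0.28. Every value was above 0 in 2 of the 7 and below 0 in 1. This was RPB4, outside the rule for named genes (mean -0.41, adjusted p = 0.072 in limma). RPB3, the counterpart of RPC40, had a mean of -0.28 (adjusted p = 0.102 in limma), and RPB11, the counterpart of RPC19, of 0.09. At an unadjusted p at or under 0.05 in limma, 3 of the 6 were lower, against 24.8% of all fitted genes. Of the 5 subunits common to all nuclear RNA polymerases, RPO26 had no value, 2 were fitted and none was called in limma, nor was one (0 of 2) without adjustment of p. RPB5, a common subunit outside the rule for named genes and chosen after its values were seen, gave -0.63 and -0.76 in replicate 1 and -0.76 in replicate 2, with an adjusted p in limma of 0.030 on replicate means.

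Transcription by RNA polymerase I also needs the upstream activating factor and the core factor at the ribosomal DNA promoter. With RRN3 and the DNA-binding protein HMO1 the list holds 9 factors, of which 4 lie in the runs. Of these 9, 7 were fitted and 1 was called lower, against 17.0% of all fitted genes. This was RRN9 (YMR270C), a subunit of the upstream activating factor, at -0.59 and -0.65 in replicate 1 and -1.15 and -0.44 in replicate 2. The mean of -0.71 ± 0.12 (SD, n = 2) had an adjusted p of 0.027 in limma, but of 0.111 without the MM in Cy5 array of replicate 2, where the mean was -0.53.

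Of 10 factors of RNA polymerase III, 5 were fitted and 1 was called higher, against 16.5% of all fitted genes. MAF1 (YDR005C), the repressor of RNA polymerase III, gave 0.85 and 0.81 in replicate 1 and 0.79 and 0.79 in replicate 2. These were the most uniform values among the genes named here, all 4 within 0.07 of each other. The mean of 0.81 ± 0.03 (SD, n = 2), or 1.75-fold more in MM, had an adjusted p of 0.019 in limma. BDP1, a subunit of TFIIIB chosen after its values were seen, stood at 1.89 and 1.69 in replicate 1 and was blank in replicate 2, so that it has no test. Over all 41 other genes of the pathway, 28 were fitted, of which 1 was called lower and 1 higher, with a median of -0.10. The shares of all fitted genes called were 17.0% lower and 16.5% higher. Of the 41 genes 15 lie in the runs, and the 17 fitted genes outside them had a median of 0.017, on the other side of 0.

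The position of the members in the genome was a further property that had not entered their choice. In the order of the protein-coding genes of the R64 annotation 8 of the 10 members have a divergently transcribed gene as their upstream neighbour, against 51.7% of 5992 genes. Only 2 of these 8 neighbours were measured on all 4 arrays. Both were called lower in MM, as were 17.0% of all fitted genes. DBF20 (YPR111W), a cell cycle protein kinase next to RPC40, gave -1.02 and -0.84 in replicate 1 and -1.20 and -0.97 in replicate 2. Its mean of -1.01 ± 0.11 (SD, n = 2; adjusted p = 0.016 in limma) was close to the -0.996 of RPC40. DBF20 has a close paralog, DBF2, whose part in the signal of the spot was not tested.

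CRS1 (YNL247W), the cysteinyl-tRNA synthetase gene next to RPA49, gave -1.11 and -1.05 in replicate 1 and -1.23 and 0.07 in replicate 2. The last array, on which RPA49 was blank, stood apart from the other values. The mean was -0.83 ± 0.36 (SD, n = 2; adjusted p = 0.047 in limma). This call was lost in 6 of 12 alternative settings, with an adjusted p of 0.337 and a mean of -0.50 without the MM in Cy5 array of replicate 2.

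The remaining 6 neighbours did not share one direction. The 4 with means above 0 were NTA1 next to RPA12 (0.50 over 3 arrays), SWM2 next to RPC34 (0.54 over 2), and CPR1 next to RPA14 and QCR2 next to RPC82, each with a value on 1 array (0.54 and 0.64). The 2 below 0 were YNL115C next to RPC19 (-0.53) and SAS10 next to RPC53 (-0.31), both measured in replicate 1 only.

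**Figure D4:**
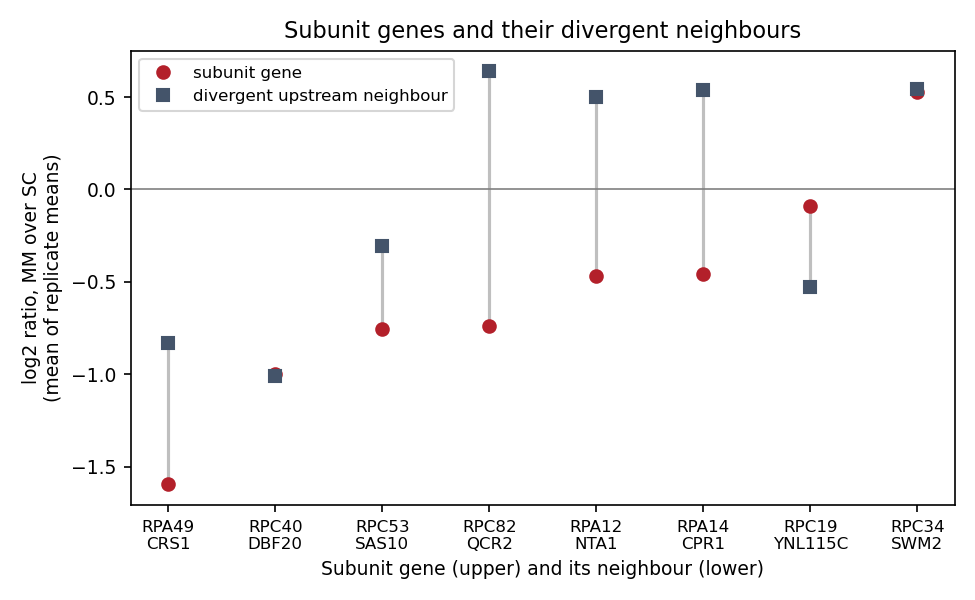
Mean of the replicate log2 ratios (vertical axis) of 8 subunit genes (circles) and of the divergent gene upstream of each (squares), joined by a line. DBF20 and SWM2 lie within 0.02 of RPC40 and RPC34, while NTA1, CPR1 and QCR2 lie above 0 next to subunit genes below 0.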

How the data were processed

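The deposited values are log2 ratios per ORF and array. Per the study's methods, the authors scanned the arrays, subtracted background, normalized each array mean by mean over well measured spots (signal above the background by a margin of its pixel SDs) and blanked the others. Dye-swapped arrays correlated positively (r = 0.928 and 0.859), so the values were taken as turned to 1 direction. From them, replicate means, SDs and limma 3.58.1 fits in R 4.3.3 were computed. Simulated data kept the real genes and blanks but drew gene variances from limma's own model. They held no runs and only a fixed dye shift between the arrays of a replicate. There limma recovered the changes, but its mean share of false calls was somewhat above the nominal level. This share may differ in the real arrays. A first simulation with more array noise exceeded the limit set for it, so that calls close to the threshold are less sure than their adjusted p. The authors' own test program was not used. The p-values measure the spread between these samples. The series' design text names biological replicates, whereas the paper's methods say only that each replicate had its own reverse transcription, so this spread may be technical, and n = 2 limits the precision. The depth behind single spots is unknown.

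The members and lists were chosen with earlier results of these data known, as were the ends of the runs. Genes were named by rule: the members, the other subunits of both enzymes, MAF1, the called genes with the largest change in each direction in other lists outside the runs, and fitted divergent neighbours. Symbols and gene order came from RefSeq assembly R64 (5801 of 6301 ORFs matched). The build behind the values is not given in the sources used here, so no coordinates are printed. Promoter motifs were planned but not searched, as promoter sequences were not used here. Alternatives were leaving out each array, no variance moderation, arrays as independent samples or with a replicate block, centring, scaling, at least 3 arrays, leaving out the runs and, chosen after seeing the data, any array of both replicates.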

Additional observations from a re-analysis of the deposited data

Results flagged for a closer look

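CRS1, the divergent neighbour of RPA49, had 1 array far from the others: the gap between the SC in Cy5 array of replicate 2 (0.07) and the next value (-1.05) took up 0.864 of the whole range of the 4 arrays. Chance alone marks about 1 in 20 groups in this way.

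RPC17 lay near 0, with a sign that differed between the dye orientations. It was above 0 with MM in Cy5 (0.14, 1 array) and below 0 on both arrays with SC in Cy5 (-0.0068 and -0.05), a difference of 0.170 between the orientations that was not tested. In replicate 1, which has both orientations, the difference of 0.149 was smaller in size than the median of 0.189 over 5749 ORFs.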

How the results depend on the processing

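Settings were compared for genes on all 4 arrays. Among the 4 fitted members, the 7 fitted other subunits, MAF1, RRN9, CRS1 and DBF20, no mean log2 ratio reversed its sign under a setting that fitted it. Of 4 fitted members 2 were called lower in the fit of the report, and the number was 0 without moderation of the variance (0 also at an unadjusted p, and 0 of all genes adjusted against 877 unadjusted), 4 with arrays as independent samples and no replicate block, 4 with a random replicate block (correlation -0.24) and 4 with the runs left out, where limma set 1 common variance (SE 0.122 for each gene). The share of all genes called lower rose in these 3 fits too, from 17.0% to 23.9%, 27.2% and 33.3%. It was 6 of 7 with at least 3 arrays and 4 of 7 with any array of both replicates (chosen after seeing the data). Leaving out single arrays gave 1 to 2, the 1 without MM in Cy5 replicate 2, when calls over all genes dropped from 641 to 270 lower and from 622 to 300 higher. The median of the members then lay between -0.72 and -0.58. Of 28 fitted other pathway genes 1 was called lower (share of all fitted genes 17.0%). The number was 0 without moderation (0.00%), 3 with independent arrays (23.9%), 4 with the block (27.2%) and 2 with centred arrays (17.6%). Leaving out single arrays gave 0 to 1 (7.17% to 14.1%). It was 4 of 34 with at least 3 arrays (21.8%), 2 of 34 with both replicates (13.0%) and 6 of 17 with the runs left out (33.3%). Of the 28, 1 was called higher (622 of all 3765 genes). The number was 0 without moderation (0 of all), 2 with independent arrays (845) and 2 with the block (956). With at least 3 arrays 3 of 34 were called higher (990 of 4570 genes). Dye terms of the 4 fitted members were tried with a fixed replicate block, where 26 genes but 0 members were called, and without each array in turn, where 0 genes were called. The calls of RPC40, DBF20 and MAF1 were lost without moderation and under none of the other settings, with adjusted p up to 0.235, 0.212 and 0.195. The motif alternative was not run. For calls that changed without a construction that shows why, the cause was not tested. Blank spots in replicate 2 and 2 replicates limit what these arrays can show.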
